A study of Homo sapiens with 4 samples.

Results

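The genes described here encode the machinery that untangles and compacts chromosomes, together with the proliferation antigen Ki-67: the DNA topoisomerases TOP1, TOP2A and TOP2B, the condensin subunits SMC2, SMC4, NCAPD2, NCAPD3, NCAPG and NCAPH, and MKI67. They were chosen by name, and each of the 10 symbols matched a single row, through its Ensembl gene ID, among the 61852 gene rows of the tables. RNA with poly(A) tails was sequenced in 4 libraries of H1299, a human cell line established from a non-small-cell lung carcinoma. The labels give the genotype of all 4 as p53-/-, so every library comes from cells without a p53 of their own: 2 expressed wild-type p53 (p53WT) and 2 expressed the p53 mutant CASM34. The title of the series concerns synonymous p53 mutations of cancer and the p53 response to DNA damage, and the comparison of CASM34 with p53WT asks how the transcriptome differs between the 2 forms. No treatment is named in the labels, the sources used here give neither the vector nor its promoter, and no library of cells without any p53 was analysed here.

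Topoisomerases relieve the twists and tangles that form when DNA is copied, transcribed and separated. TOP1 cuts a single strand, while TOP2A and TOP2B cut both strands and pass another duplex through the gap; TOP2A is made mainly by dividing cells and TOP2B also by resting ones. Condensins are rings built on the ATPases SMC2 and SMC4. Condensin I adds NCAPD2, NCAPG and NCAPH, and condensin II adds NCAPD3, NCAPG2 and NCAPH2. Ki-67, the product of MKI67, coats mitotic chromosomes and is the standard antibody marker of cycling cells. Active p53 induces CDKN1A, the gene of the kinase inhibitor p21, and thereby favours the DREAM repressor complex, which represses many genes of G2 and mitosis through a promoter element called the CHR.

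The promoters of the 10 genes were read for the letters of the CHR and of other promoter elements. The promoter table (RefSeq, GRCh38.p14, the build named for these data being GRCh38) held 14 windows for all 10 genes, each of 300 bases, from 250 before to 50 after the annotated start. The searched letters were TTTGAA (CHR), CCAAT (the CCAAT box) and 2 forms of the E2F site, TTTGGCGC and TTTCCCGC, on both strands. The 160 bases before the start are shown for the condensin gene with the lowest adjusted p, for the proliferation markers MKI67 and TOP2A, for the ring ATPase SMC4 and for TOP1, which held none of these letters. Each runs 5′ to 3′ on the gene's own strand, and capitals mark CHR and CCAAT letters, which read TTCAAA and ATTGG where they lie on the other strand.
NCAPG (chr4:17810819-17810978, plus strand): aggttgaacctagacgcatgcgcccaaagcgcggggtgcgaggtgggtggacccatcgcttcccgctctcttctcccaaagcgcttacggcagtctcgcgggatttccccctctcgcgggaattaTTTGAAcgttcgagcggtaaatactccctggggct
MKI67 (chr10:128126424-128126583, minus strand): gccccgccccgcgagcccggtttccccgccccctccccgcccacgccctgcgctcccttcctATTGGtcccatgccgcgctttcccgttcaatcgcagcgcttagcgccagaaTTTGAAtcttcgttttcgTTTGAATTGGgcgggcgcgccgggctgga
TOP2A (chr17:40417897-40418056, minus strand): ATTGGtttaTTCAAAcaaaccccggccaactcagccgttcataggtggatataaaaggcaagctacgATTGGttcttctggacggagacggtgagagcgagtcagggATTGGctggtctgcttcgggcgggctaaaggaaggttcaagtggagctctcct
SMC4 (chr3:160399490-160399649, plus strand): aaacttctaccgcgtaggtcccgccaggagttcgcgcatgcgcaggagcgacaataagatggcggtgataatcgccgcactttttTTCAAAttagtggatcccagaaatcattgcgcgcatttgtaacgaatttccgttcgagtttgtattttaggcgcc
TOP1 (chr20:41028662-41028821, plus strand): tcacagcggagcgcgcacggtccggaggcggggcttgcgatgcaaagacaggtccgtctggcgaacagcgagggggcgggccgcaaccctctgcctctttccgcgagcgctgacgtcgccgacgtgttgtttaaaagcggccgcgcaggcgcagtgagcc

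NCAPG held TTTGAA from base 35 before its start, and MKI67 held it from bases 47 and 29 before its start, the second sharing a base with an inverted CCAAT box. TOP2A held CHR letters from bases 194 and 151 before its start and, over the whole window, 4 inverted CCAAT boxes. In all, 8 of the 10 genes had TTTGAA in at least 1 window, against 18.2% of 27167 genes in the table, and 6 of 10 had CCAAT, against 39.8%. Of the 16 G2 and mitosis genes with a window, taken from a list of 20, 10 had TTTGAA and 14 had CCAAT. TOP1 and NCAPH were the 2 genes without TTTGAA, and TTTCCCGC occurred once, in NCAPD3. TOP2B, the least changed of the 10 genes (log2 fold change -0.02), held TTTGAA from base 227 before its start. The 2 genes without TTTGAA, NCAPH and TOP1, lay at -0.17 and -0.07, and NCAPG, the most changed of the 10, held it and lay at -0.24. These matches describe letters in the windows and no binding was measured. Whether the letters go with the fold changes was not tested.

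The libraries held 18086983 to 26906095 estimated counts, and the 10 genes took 991 to 16074.5 of them each, so all 10 passed the filter on low counts. CDKN1A, used as a check of p53 output, rose in CASM34 from 390 and 413 CPM (library-scaled counts, with TMM factors) in p53WT to 517 and 531 CPM. Its log2 fold change was 0.38 (SE 0.05, adjusted p in edgeR = 0.00274). It passed in DESeq2 (0.38, adjusted p = 4.05e-13) and with an offset for GC content and length (0.27, adjusted p in edgeR = 0.0255). It did not pass once the transcript length that RSEM estimated per library was used as an offset (0.38, adjusted p in edgeR = 0.175), nor by limma from log2(TPM + 1) values (0.38, adjusted p = 0.260). FDXR, BAX and MDM2, from the same check, also rose (0.46, 0.34 and 0.23, adjusted p in edgeR = 0.00171, 0.0109 and 0.0255). None of them passed in the last 2 fits, and BAX also missed with the GC offset. FDXR, BAX and MDM2 lay at 0.42, 0.26 and 0.19 without p53WT replicate 1 and at 0.50, 0.41 and 0.26 without p53WT replicate 2. The level of the p53 transcript itself was not analysed here. Of 12 lung and epithelial markers, 4 were high enough to test. Keratin genes of simple epithelium were high, with 501 to 556 CPM for KRT8 and 1011 to 1035 CPM for KRT18. CLDN4 had 5.11 to 7.40 CPM and MUC1 had 1.86 to 2.92 CPM. The others, EPCAM, KRT5, CDH1, NKX2-1, NAPSA, SFTPB, SFTPC and TP63, stayed at or below 0.658 CPM. Of 8 leukocyte markers, PTPRC, CD3E, MS4A1 and NKG7 were at 0 in every library and CD68 alone was high enough to test (90 to 102 CPM). The 8 fibroblast and endothelial markers summed to 3.41 to 4.11 CPM. The share of counts from all genes of the mitochondrial genome was 1.44% and 1.09% for p53WT against 1.81% and 1.45% for CASM34. The fitted log2 fold changes of the 13 mitochondrially encoded mRNAs were all positive, and their median was 0.35. Of these, MT-ND2 and MT-ND6, subunit genes of respiratory complex I, rose (0.41 and 0.56, adjusted p in edgeR = 0.0381 and 0.0489), but neither passed without p53WT replicate 2 (0.27 and 0.40, adjusted p in edgeR = 0.201 and 0.214) or in DESeq2 (adjusted p = 0.271 and 0.387). With the mitochondrial genes left out of the fit, the median of the 10 genes was -0.15 and 1 of them passed, as with them in. The labels do not say whether the libraries come from separate cultures. The p-values concern these 4 libraries only and judge the difference between the groups against the spread within them. That spread may be only technical, in which case the p-values may be too small.

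Levels between genes were compared as TPM, which divides counts by transcript length. NCAPD2, a HEAT-repeat subunit of condensin I, was the highest, with 215 and 200.4 TPM in p53WT and 199.7 and 180 TPM in CASM34. SMC4 followed at 135 to 150 TPM over the 4 libraries and TOP1 at 86.7 to 95.1 TPM. MKI67 was the lowest, with 26.7 and 19.3 TPM in p53WT and 21.2 and 17.6 TPM in CASM34, and the mean of NCAPD2 was 9.38 times that of MKI67. The ranges of TOP2A (66.9 to 78.9 TPM) and NCAPG (58.7 to 71.0 TPM) overlapped, as did those of NCAPD3, SMC2 and TOP2B (28.2 to 34.0 TPM together). All other neighbours in the order had ranges that did not overlap. The ring partners SMC2 and SMC4 were thus not at equal transcript levels: SMC2 had 28.2 to 33.3 TPM.

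**Figure D1:**
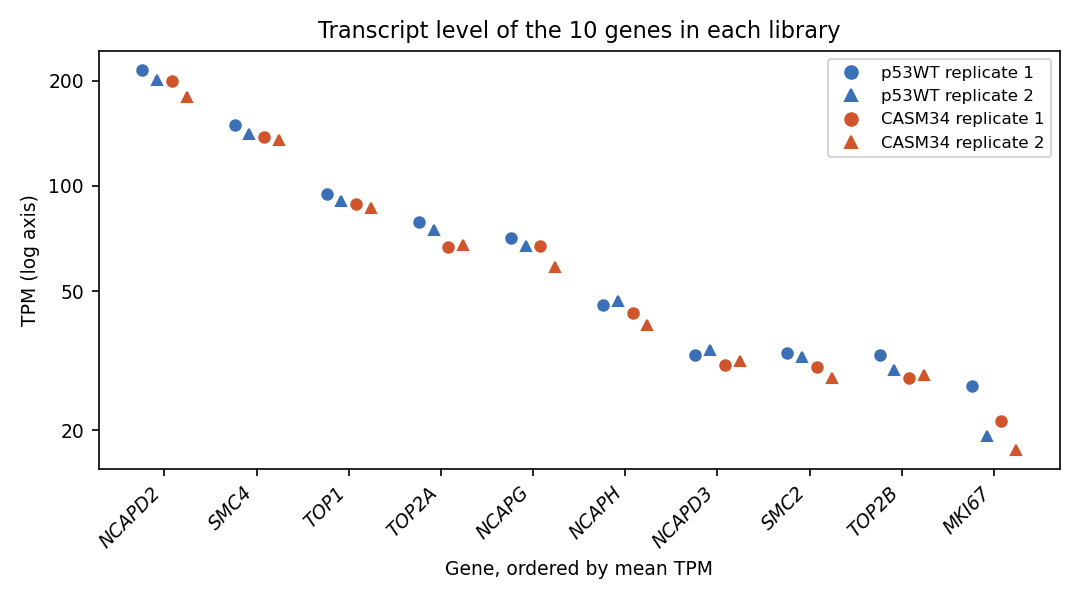
TPM (log axis) of the 10 genes in each of the 4 libraries, blue for p53WT and orange for CASM34, circles for replicate 1 and triangles for replicate 2. NCAPD2 is highest and MKI67 lowest, and p53WT replicate 1 stands above the other 3 libraries for MKI67.

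Between the groups, all 10 genes had fitted log2 fold changes below 0 in CASM34, from -0.24 for NCAPG to -0.02 for TOP2B, with a median of -0.15. Over all 15965 genes tested the median was 0.00 and 50.2% lay below 0. By edgeR's quasi-likelihood test with Benjamini-Hochberg adjustment over all of these genes, 1 of the 10, NCAPG, fell, 0 rose and 9 did not pass, where 0.345% of all genes fell and 1.61% rose (1.95% in all, 312 genes). The groups did not overlap in CPM, with CASM34 lower, for 9 of the 10 genes, against 23.4% of all genes tested. An unadjusted p under 0.05 was reached by 7 of the 10, all lower, against 6.81% of all genes. The 10 genes together took 2501 and 2390 CPM in p53WT and 2273 and 2185 CPM in CASM34. The count-based differences were small: NCAPG was 15.5% below p53WT by the fit and the other 9 genes were 1.7% to 11.2% below it. In bulk RNA, fewer cells in a given state and less RNA per cell cannot be told apart.

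**Figure D2:**
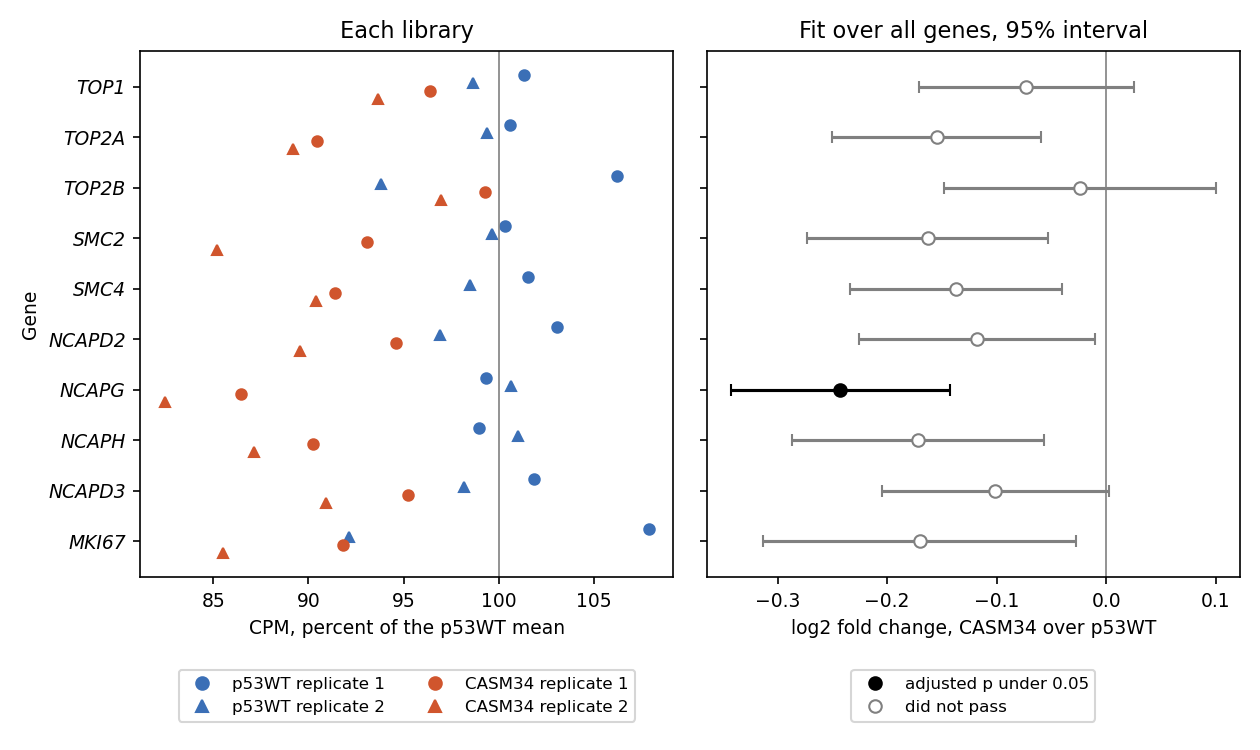
Left, CPM of each gene in each library as a percent of the gene's p53WT mean; right, edgeR log2 fold changes of CASM34 over p53WT with unadjusted 95% intervals, filled where the adjusted p is under 0.05. All 10 fold changes lie below 0, and NCAPG is the filled point at -0.24.

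Among the condensin I subunits, NCAPG, which encodes a HEAT-repeat subunit that binds DNA (ENSG00000109805.10, GRCh38 chromosome 4, 17810902 to 17844862, plus strand, GENCODE 29), had 181 and 184 CPM in p53WT and 158 and 151 CPM in CASM34. Both CASM34 libraries lay below both p53WT libraries, and the fall from 183 ± 1.74 to 154 ± 5.17 CPM (SD, n = 2 each) gave a log2 fold change of -0.24 (SE 0.05, adjusted p in edgeR = 0.0207). NCAPG kept this direction but missed the threshold without p53WT replicate 1 (-0.26, adjusted p in edgeR = 0.0803) or without p53WT replicate 2 (-0.23, adjusted p in edgeR = 0.0940). It lay at -0.18 with an offset that removes a library's dependence on GC content and transcript length, called here the GC and length offset (adjusted p in edgeR = 0.101) and at -0.14 with an effective length offset (adjusted p in edgeR = 0.500). Its counts were fractional in all 4 libraries, so they include reads shared among gene models, and LCORL overlaps it on the other strand over 3664 bases.

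NCAPH, the kleisin that closes the condensin I ring (ENSG00000121152.10, chromosome 2, 96335787 to 96373845, plus strand), had 61.7 and 63.0 CPM in p53WT and 56.2 and 54.3 CPM in CASM34. The groups did not overlap, but the log2 fold change of -0.17 (SE 0.05) did not pass (adjusted p in edgeR = 0.120). NCAPD2 (ENSG00000010292.13, chromosome 12, 6493356 to 6531955, plus strand) had 656 and 617 CPM in p53WT and 602 and 570 CPM in CASM34, a log2 fold change of -0.12 (SE 0.05, adjusted p in edgeR = 0.243) that came to -0.08 without p53WT replicate 1 and to -0.16 without p53WT replicate 2. Its p53WT libraries differed from each other by more than the nearest p53WT and CASM34 libraries did. Counts of NCAPD2 were fractional in all libraries, and MRPL51 overlaps it on the other strand over 486 bases.

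The ATPase genes shared by both condensins were lower by similar amounts. SMC2 (ENSG00000136824.19, chromosome 9, 104094260 to 104141417, plus strand) had 138 and 137 CPM in p53WT and 128 and 117 CPM in CASM34, a log2 fold change of -0.16 (SE 0.05, adjusted p in edgeR = 0.122). The 2 p53WT libraries were nearly equal and both CASM34 libraries lay below them. Without CASM34 replicate 1 SMC2 lay at -0.23, while without CASM34 replicate 2 it lay at -0.10. SMC4 (ENSG00000113810.16, chromosome 3, 160399274 to 160434962, plus strand) had 400.4 and 388 CPM in p53WT and 360.5 and 357 CPM in CASM34, without overlap, a log2 fold change of -0.14 (SE 0.04, adjusted p in edgeR = 0.137). DESeq2 called it, with the same log2 fold change (adjusted p = 0.0403). SMC4 shares 2518 bases on the other strand with TRIM59, a gene singled out after its values were seen, which fell by 0.29 on the log2 scale (adjusted p in edgeR = 0.0165). Since the strand setting of the counting is not given in the sources used here, reads of the 2 genes cannot be told apart over that stretch.

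NCAPD3, a HEAT-repeat subunit of condensin II (ENSG00000151503.14, chromosome 11, 134150119 to 134225454, minus strand), had 126 and 122 CPM in p53WT and 118 and 113 CPM in CASM34. The groups did not overlap, and the log2 fold change of -0.10 (SE 0.05, 95% interval -0.20 to 0.00) did not pass (adjusted p in edgeR = 0.304). NCAPD3 overlaps VPS26B and JAM3 on the other strand and had fractional counts in all libraries. Of the other 2 condensin II subunits, NCAPG2 lay at -0.16 (SE 0.05, adjusted p in edgeR = 0.127), with 146 and 146 CPM in p53WT and 136 and 124 CPM in CASM34. Without CASM34 replicate 1 NCAPG2 lay at -0.23, and without CASM34 replicate 2 it lay at -0.10. NCAPH2, the kleisin of condensin II, lay at -0.02 (SE 0.05, adjusted p in edgeR = 0.893) and its groups overlapped. It turned to 0.02 without p53WT replicate 2 and to 0.04 without CASM34 replicate 1, while with the GC and length offset it lay at -0.19, unadjusted p = 0.0030 in edgeR (adjusted p in edgeR = 0.136), so its size depends on the processing. The mean TPM of NCAPD2, NCAPG and NCAPH over the TPM of NCAPD3 came to 3.37 and 3.09 in the p53WT libraries and to 3.35 and 2.95 in those of CASM34. The groups overlapped, and an exact permutation test, two-sided, gave p = 0.667 (2 libraries against 2 cannot go below 0.33). In CPM, not divided by length, the ratio did not overlap between the groups and was lower in CASM34, a log2 difference of -0.04 (exact permutation test, two-sided, p = 0.33).

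Among the topoisomerases, TOP2A (ENSG00000131747.15, chromosome 17, 40388516 to 40417950, minus strand) had 320 and 316 CPM in p53WT and 287 and 283 CPM in CASM34. The replicates of TOP2A lay close together and the groups well apart, yet the log2 fold change of -0.15 (SE 0.04) did not pass (adjusted p in edgeR = 0.0932). DESeq2 called TOP2A at -0.16 (adjusted p = 0.0234), while under the GC and length offset it lay at -0.09 (adjusted p in edgeR = 0.349). TOP1 (ENSG00000198900.7, chromosome 20, 41028818 to 41124487, plus strand) had 272 and 265 CPM in p53WT and 259 and 251 CPM in CASM34, a log2 fold change of -0.07 (SE 0.05, 95% interval -0.17 to 0.02, adjusted p in edgeR = 0.448). The groups of TOP1 did not overlap, but replicates within a group differed by more than the nearest libraries of the 2 groups.

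TOP2B (ENSG00000077097.17, chromosome 3, 25597905 to 25664907, minus strand) had 127 and 113 CPM in p53WT and 119 and 116 CPM in CASM34. It was the 1 gene of the 10 whose groups overlapped in CPM, with both CASM34 libraries between the 2 p53WT libraries. Its log2 fold change was -0.02 (SE 0.06, 95% interval -0.15 to 0.10, adjusted p in edgeR = 0.872), and it turned to 0.06 without p53WT replicate 1 and to 0.04 with the GC and length offset. TOP2A exceeded TOP2B in every library, with TPM ratios of 2.40 and 2.52 in p53WT and 2.38 and 2.37 in CASM34. Both CASM34 ratios lay below both p53WT ratios, a log2 difference of -0.05 (-0.09 without p53WT replicate 1, -0.02 without p53WT replicate 2), with p = 0.33 by an exact permutation test, two-sided, the smallest that 2 against 2 allows. In CPM, not divided by length, that difference was -0.13.

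MKI67 (ENSG00000148773.14, chromosome 10, 128096659 to 128126385, minus strand) had 218 and 186 CPM in p53WT and 185 and 173 CPM in CASM34. The groups were barely separated, p53WT replicate 2 lying just above CASM34 replicate 1, and p53WT replicate 1 stood above the other 3 libraries. The log2 fold change was -0.17 (SE 0.07, adjusted p in edgeR = 0.204). Without p53WT replicate 1 it was -0.06, without p53WT replicate 2 it was -0.28, and without CASM34 replicate 1 it was -0.22. The TPM ratio of MKI67 to TOP2A came to 0.339 and 0.257 in the p53WT libraries and to 0.316 and 0.259 in those of CASM34, so the libraries numbered 1 had the higher ratio in both groups. The groups overlapped (exact permutation test, two-sided, p = 1).

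The effective length, which RSEM estimates from the mix of a gene's isoforms, differed between libraries for some of these genes and altered what a TPM fold shows. For NCAPG it was 3062 and 3213 bases in p53WT and 2768 and 3033 bases in CASM34, without overlap, and the log2 ratio of mean TPM was -0.14 where the count-based log2 fold change was -0.24. For TOP2B it was 4654 and 4471 bases in p53WT and 4989 and 4804 bases in CASM34, and the log2 ratio of mean TPM was also -0.14 where the count-based one was -0.02. In TPM its CASM34 libraries (28.2 and 28.7) lay below its p53WT libraries (32.8 and 29.7). For MKI67 the effective length was 9766 and 10317 bases in the libraries numbered 1 and 11374 and 11617 bases in those numbered 2, of p53WT and CASM34 respectively. TOP1 varied least, from 3431 to 3438 bases. In TPM the groups did not overlap, with CASM34 lower, for 9 of the 10 genes, all but MKI67, against 20.7% of all genes tested. Isoform-level tables were not analysed here.

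**Figure D3:**
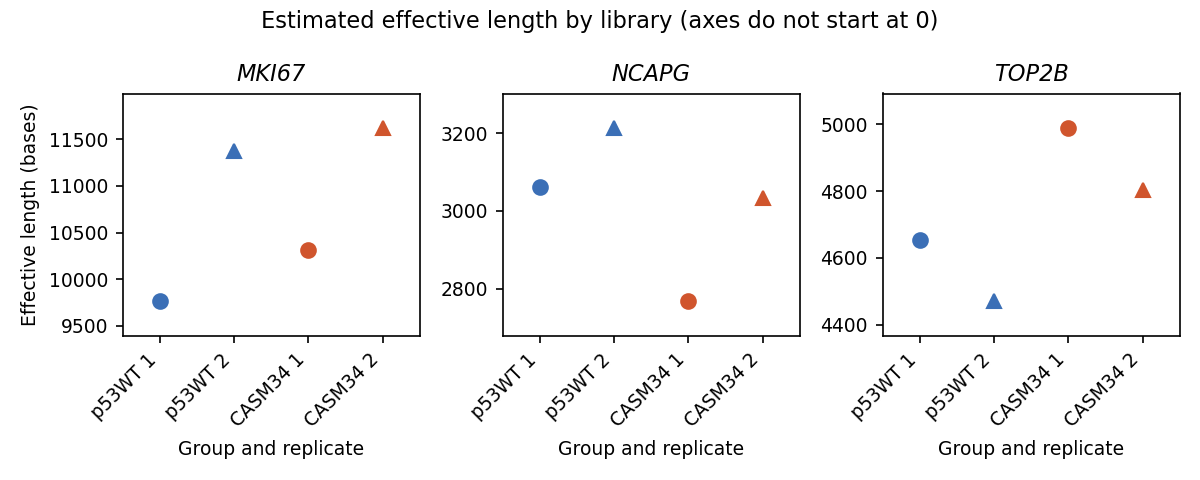
Effective length in bases, as estimated in the deposited tables, of MKI67, NCAPG and TOP2B in each library; each panel has its own axis, which does not start at 0. The 2 groups do not overlap for NCAPG (lower in CASM34) or TOP2B (higher in CASM34), while for MKI67 the libraries numbered 2 are higher in both groups.

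GC content moved with the groups in these libraries. For every 10 percentage points of transcript GC content, the log2 level shifted by -0.06 and -0.05 in the p53WT libraries and by 0.07 and 0.04 in the CASM34 libraries. Transcripts of the 10 genes had a median GC content of 40.6%, against 49.5% for all genes tested, and 6 of the 10 were below 45%: SMC2, SMC4, TOP2B, TOP2A, NCAPG and TOP1. Of the 5095 tested genes below 45% GC, 73.9% had a log2 fold change below 0, with a median of -0.07. With the GC and length offset, 9 of the 10 genes lay below 0, where 56.3% of all genes did. Their median was then -0.10, against -0.02 over all genes, and 0 passed, with 6 at an unadjusted p under 0.05. Of the 4 genes above 45% GC, MKI67 went from -0.17 to -0.20 with the offset, NCAPD2 from -0.12 to -0.16, NCAPH from -0.17 to -0.16 and NCAPD3 from -0.10 to -0.11. All 6 genes below 45% moved upwards: NCAPG to -0.18, TOP2A to -0.09, SMC2 to -0.09, SMC4 to -0.07 and TOP1 to -0.03, all closer to 0, while TOP2B crossed 0, from -0.02 to 0.04. The offset was fitted to each library's own dependence on GC content and length. An upward move at low GC content therefore follows from the adjustment and is not a separate result about these genes.

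**Figure D4:**
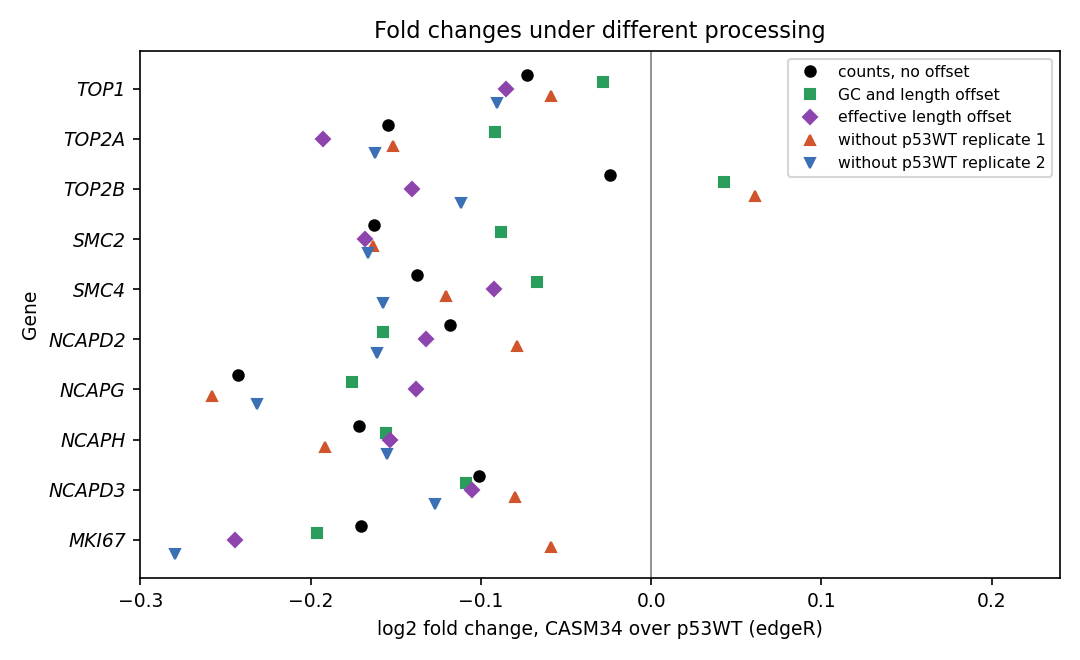
edgeR log2 fold changes of CASM34 over p53WT for the 10 genes from all libraries without an offset, with the GC and length offset, with the effective length offset, and without either p53WT library. Points lie below 0 except TOP2B with the GC and length offset (0.04) and without p53WT replicate 1 (0.06).

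Other genes of chromosome structure were described from lists written with earlier results of these data known. For the counts below, 0.345% of all genes tested fell, 1.61% rose and 6.81% were lower at an unadjusted p under 0.05 in edgeR. The 4 other SMC genes (SMC1A and SMC3 of cohesin, SMC5 and SMC6) all lay below 0, with a median of -0.12, and none passed by edgeR; 2 had an unadjusted p under 0.05, and SMC6 had the smallest adjusted p (-0.14, SE 0.05, adjusted p in edgeR = 0.186). Of 10 genes for other topoisomerases and for the repair of their lesions, 7 lay below 0 and 3 above, with a median of -0.09, and none passed by edgeR (3 at an unadjusted p under 0.05). The lowest was BLM, a helicase that acts with topoisomerase III, at -0.23 (SE 0.07, adjusted p in edgeR = 0.143). Of 13 genes of chromosome compaction and the chromosome surface, 10 lay below 0, with a median of -0.08, and 2 had an unadjusted p under 0.05. By adjusted p, 1 fell and 0 rose. The 1 that fell was KIF4A, a chromosome-bound kinesin that works beside condensin, with 150 and 140 CPM in p53WT and 124 and 126 CPM in CASM34, a log2 fold change of -0.21 (SE 0.05, adjusted p in edgeR = 0.0442). This call was lost with scaling by library totals only (-0.21, adjusted p in edgeR = 0.0663) and under the GC and length offset (-0.20, adjusted p in edgeR = 0.0578). It was also lost with the effective length offset (-0.22, adjusted p in edgeR = 0.295) and in limma on log2(TPM + 1) (-0.21, adjusted p = 0.372). KIF4A lay at -0.17 without p53WT replicate 1 and at -0.20 without CASM34 replicate 1, and the call was lost in both fits. A pair of Ki-67 partners in the same list, NIFK and CDCA2, singled out after their values were seen, had log2 fold changes of -0.11 and -0.08 that missed the threshold (adjusted p in edgeR = 0.403 and 0.561).

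All 20 genes of the G2 and mitosis list lay below 0, the median being -0.17 and the extremes -0.23 and -0.05. An unadjusted p under 0.05 in edgeR was reached by 16 of them, where 6.81% of all genes tested were lower at that level. By adjusted p, 4 fell and 0 rose, where 0.345% of all genes fell and 1.61% rose. The 4 were NUSAP1, which binds spindle microtubules, the spindle motor gene KIF11, the mitotic kinase gene CDK1 and the checkpoint kinase gene BUB1, at -0.23, -0.23, -0.23 and -0.22 (adjusted p in edgeR = 0.0249, 0.0255, 0.0286 and 0.0306). None of the 4 passed without p53WT replicate 1 or without p53WT replicate 2, although their log2 fold changes stayed between -0.26 and -0.20 in those fits. With the GC and length offset none passed either: NUSAP1 lay at -0.18, KIF11 at -0.16, BUB1 at -0.18 and CDK1 at -0.12, the list's median was -0.13 and all 20 were below 0. The calls were also absent by limma from log2(TPM + 1) values and with an offset for effective length, which put NUSAP1 at -0.14. CDK1 was also lost without CASM34 replicate 1 (-0.19, adjusted p in edgeR = 0.0920). Of 16 S phase genes 15 lay below 0, with a median of -0.09, and none passed by edgeR, while 6 had an unadjusted p under 0.05. With the GC and length offset 16 of the 16 lay below 0, with a median of -0.12, and 1 passed by edgeR. The lowest adjusted p was that of RRM2, a ribonucleotide reductase gene, at -0.18 (SE 0.05, adjusted p in edgeR = 0.0697), and it passed in DESeq2 at -0.19 (adjusted p = 0.00507). RRM2 came to -0.08 in limma on log2(TPM + 1) (adjusted p = 0.599) and to -0.08 with the effective length offset (adjusted p in edgeR = 0.569). The median of the 10 genes lay between those of the S phase and the mitotic list without an offset, but was the closest to 0 of the 3 with the GC and length offset (-0.10, against -0.12 and -0.13). The difference between lists was not tested.

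**Figure D5:**
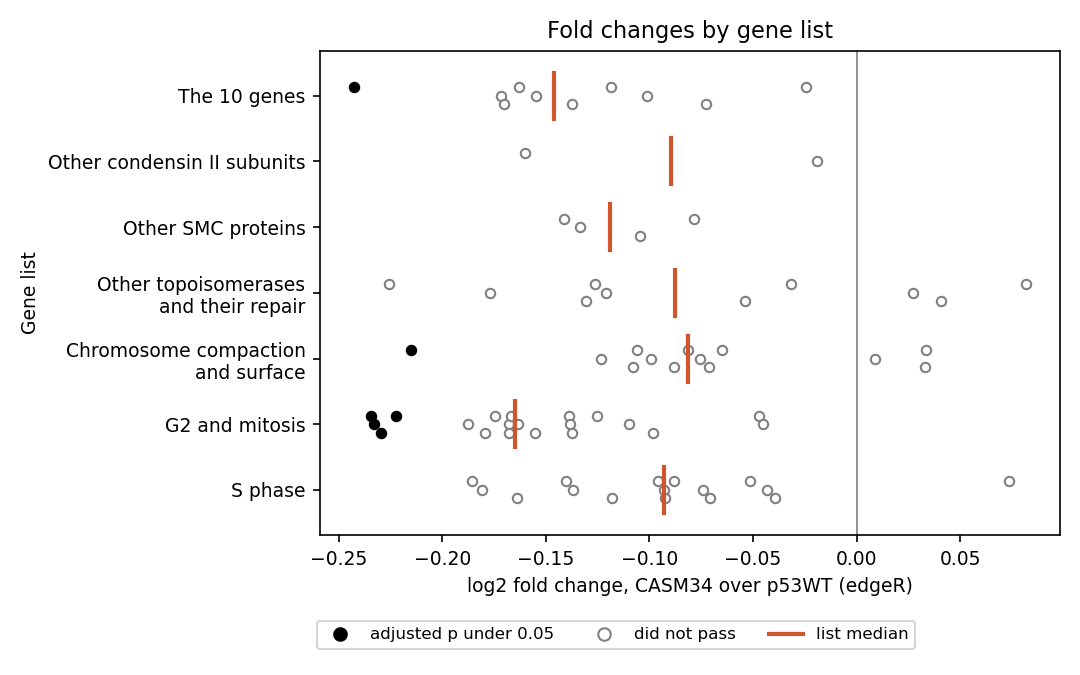
edgeR log2 fold changes of CASM34 over p53WT for the tested genes of 7 lists, filled where the adjusted p is under 0.05, with each list's median as an orange bar. The medians run from -0.17 for G2 and mitosis to -0.08 for chromosome compaction and surface.

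The mean centred profile of the 10 genes over the 4 libraries was shared closely by many genes. Among 9937 others with a mean of at least 10 CPM, 1549 lay within a Euclidean distance of 0.1 on the log2 scale. That distance is wide beside the values of the profile itself, so the count does not mark a closely shared profile. The 5 nearest were DCTN4, MTF2, MTHFD1, MOCS2 and TOR1AIP2, at distances of 0.0035 to 0.014, each with 4 points only. DCTN4, a dynactin subunit gene, had 95.8 and 92.1 CPM in p53WT and 87.1 and 83.6 CPM in CASM34.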

How the data were processed

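Poly(A) RNA of H1299 was sequenced in 2 p53WT and 2 CASM34 libraries, grouped by their labels. The submitters' processing notes name Trim Galore, STAR, RSEM and the build GRCh38; the tools' versions, the annotation release and strandedness are not given. Per the file headers, the authors deposited RSEM expected counts, effective lengths, TPM and FPKM of 61852 genes. RSEM shares reads that match several models, so in each library 8.63% to 9.26% of gene rows held a count that was not whole (tolerance 0.001). Names matched 61803 IDs, and coordinates are GENCODE 29. The members, the lists and the tests were chosen with earlier results of these data known.

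Expected counts were rounded and tested by quasi-likelihood in edgeR 4.0.16 (R 4.3.3), with TMM scaling, a filterByExpr minimum of 10 counts, no covariate besides the group, Benjamini-Hochberg adjustment over all 15965 genes tested and a threshold of 0.05. SE is the size of the log2 fold change over the root of the F statistic, and 95% intervals are unadjusted. CPM uses TMM factors (0.993 to 1.01). Alternatives were 3 other scalings, 2 other filters, DESeq2 1.42.0, limma 3.58.1 (voom, and log2(TPM + 1)), offsets for effective length and for GC and length (splines with 5 degrees of freedom), a replicate block, leaving out mitochondrially encoded genes or each library, and thresholds of 0.01 and 0.10. For the GC and length offset, 301 tested genes without a GC value were given no offset.

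Named genes were the 10 members, NCAPG2, NCAPH2, CDKN1A, up to 4 passing genes of each list (otherwise the one with the smallest adjusted p), and the 5 genes nearest to the members' mean profile; others are said to be singled out. On counts simulated for the 15965 genes from this comparison's means, library sizes and common dispersion (0.00193), of 50 genes per fold size edgeR recovered 31 (1.25-fold), 35 (1.5-fold), 48 (2-fold) and 50 (4-fold), with 8 false calls of 172. All of these folds were larger than the change of any of the 10 members, so recovery at the members' sizes was not measured. Replicate counts differed by more than counting error in both groups (chi-square per degree of freedom 3.73 in p53WT and 3.77 in CASM34), so the libraries of a group were counted separately.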

Additional observations from a re-analysis of the deposited data

How the results depend on the processing

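All 10 genes lay below 0 under 14 of the 16 alternative fits, and 9 did with the GC and length offset and without p53WT replicate 1, where TOP2B turned to 0.043 and 0.061 (-0.11 to 0.061 over the fits that leave out a library). The number of the 10 that passed was 1 on all libraries, 0 at an adjusted p under 0.01, 2 under 0.10, 2 with no filter on low counts and 3 in DESeq2. It was 0 in limma on log2(TPM + 1), with an effective length offset and with the GC and length offset (1, 2 and 6 at an unadjusted p under 0.05). It ran from 0 to 3 when each library was left out. Over all genes, 312 passed, and 57 at 0.01, 712 at 0.10, 777 with no filter, 207 in DESeq2, 0 in limma on log2(TPM + 1) (1820 at an unadjusted p under 0.05), 3 with the effective length offset, 59 with the GC and length offset and 109 to 919 when each library was left out; the cause was not tested.

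The numbers in the titles do not say that same-numbered libraries share a culture, and their deviations from the group means correlated at 0.04 across genes. With a replicate block 1159 of 15965 genes and 5 of the 10 passed (TOP2A, SMC2, SMC4, NCAPG and MKI67), which is given as a value and not as the design. Leaving out each library moved the log2 difference of the condensin I to II ratio between -0.13 and 0.057, that of TOP2A to TOP2B between -0.088 and -0.018, and that of MKI67 to TOP2A between -0.24 and 0.15. NCAPH2 ran from -0.079 to 0.044 in those fits, and the GC and length offset put it at -0.19. CD68, near 0 throughout, turned to 0.0023 by library totals, 0.0015 with a mean CPM of at least 1, 0.065 in log2(TPM + 1), 0.063 with the effective length offset, and ran from -0.10 to 0.084 when each library was left out. With 1 library left in a group, that library is assumed to vary like the others. Which genes passed in those fits is therefore given as a value only.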
